A study of Sus scrofa with 21 samples.

Results

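The Toll-like receptors of the pig were described in uterine endometrium, the inner lining of the uterus, from Large White sows around implantation. Members were all probes of an Agilent 1-colour array whose RefSeq accession belongs to pig TLR1 to TLR10. They came to 13 of the 43603 probes on the array and covered 9 of the 10 genes: TLR3 had 2 probes, TLR4 had 4, and TLR1, TLR2, TLR6, TLR7, TLR8, TLR9 and TLR10 had 1 each. No probe matched TLR5, which was not analysed here.

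Each of 7 groups held 3 arrays of total RNA. The non-pregnant group was given inactivated sperm and killed on day 13, with tissue taken at places comparable to those of the pregnant sows. The 6 pregnant groups came from sows killed on day 13, 18 or 24 after insemination, and on each day endometrium was taken where a conceptus was attached (attachment site) and between such places (inter-site). The labels give 3 sows per day but do not say which attachment-site and inter-site arrays share a sow. All sows were of 1 breed, and the control group exists for day 13 only, so pregnancy cannot be told apart from time after insemination on days 18 and 24.

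Toll-like receptors are membrane proteins that recognise molecules of microbes and of damaged cells. TLR1, TLR2, TLR6 and TLR10 lie at the cell surface and TLR2 binds bacterial lipoproteins as a dimer with TLR1 or TLR6, while TLR4 binds bacterial lipopolysaccharide with LY96 and CD14. TLR3, TLR7, TLR8 and TLR9 lie in endosomes and bind nucleic acids: double-stranded RNA for TLR3, single-stranded RNA for TLR7 and TLR8, and unmethylated CpG DNA for TLR9. TLR3 signals through the adaptor TICAM1 and most of the others through MYD88, and both routes lead to cytokine and interferon genes. In the uterus the receptors are known from epithelium, stroma and resident immune cells. In the RefSeq table of the pig genome TLR10, TLR1 and TLR6 are neighbours in that order, and TLR7 lies within the span of TLR8; that table also lists TLR6 as an older name of TLR1, and TLR7 as one of TLR8.

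Levels below are log2 processed spot signal minus the 75th percentile of the same array, so that 0 is the signal below which 75% of probes lie. Levels of 1 TLR gene were not set against those of another. Across probes, levels were used to choose the brightest probe of a gene and to sum marker lists. Signal over background was between 2.35 and 3.92 on the 21 arrays, no spot was saturated, and 62.3% to 77.1% of spots were well above background. The endometrial markers ESR1, PGR, SPP1 and ACP5 and the 6 epithelial markers with a probe were well above background on all 21 arrays. Libraries of 1 group were not alike in tissue make-up. The summed level of the 3 smooth muscle markers ACTA2, DES and CNN1 was 10.35 and 10.23 in non-pregnant replicates 1 and 2 against 5.12 in replicate 3, and 10.59 in day 18 attachment-site replicate 2. Inter-site day 24 replicate 3 had a correlation over probes of 0.988 with non-pregnant replicate 3, against 0.9424 and 0.9415 with its own group. Non-pregnant replicate 3 had 0.9461 and 0.9472 with its own. The summed endometrial signal of inter-site day 24 replicate 3 was 7.04 against 8.89 and 9.39 in its group. That sum was also low in inter-site day 13 replicate 1, at 6.24 against 9.34 and 9.19, and in non-pregnant replicate 3, at 6.48 against 9.16 and 9.42. The sum weighs bright markers most: as a mean of the 4 markers, each relative to its own mean over arrays, inter-site day 24 replicate 3 was at 0.39 against 0.61 and 0.37, and not low.

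All 13 probes passed the filter, under which some group had to have the probe well above background on each of its 3 arrays. TLR1, TLR2, TLR3, TLR6 and TLR7 were well above background on 21 arrays, TLR9 and TLR10 on 20, and TLR8 on 6. TLR8 passed only through the day 18 attachment sites, so its difference between that group and others follows in part from the filter.

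TLR3, the endosomal receptor for double-stranded RNA, was the 1 member that passed a test. It was highest in non-pregnant endometrium, where its levels were 1.44, 1.75 and 1.08 in replicates 1, 2 and 3. At attachment sites it was at 0.16, 0.13 and 0.23 on day 13, at 0.97, 0.41 and 1.01 on day 18 and at -0.17, 0.09 and 0.01 on day 24. At inter-sites it was at 0.73, 0.09 and 0.20 on day 13, at 0.04, 0.67 and 0.36 on day 18 and at 0.42, 0.12 and 1.03 on day 24. Each non-pregnant array was above all 18 arrays of pregnant sows on this probe. On the other TLR3 probe non-pregnant replicate 3, at 0.72, was below day 18 attachment-site replicate 3, at 0.80. On both probes the day 13 and day 24 attachment sites had the least spread. The order of the group means was non-pregnant 1.43, day 18 attachment site 0.80, day 24 inter-site 0.52, day 18 inter-site 0.36, day 13 inter-site 0.34, day 13 attachment site 0.17 and day 24 attachment site -0.02. From the second to the sixth of these, neighbouring groups overlapped, while the first and the last lay apart from their neighbours on this probe, and overlapped them on the other.

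The first comparison asked how endometrium of pregnant sows differed from that of non-pregnant sows on day 13. At attachment sites TLR3 fell by 1.25 log2 units (SE 0.26, 95% interval -1.81 to -0.70, n = 3 per group, adjusted p = 0.0291 by limma), a 2.39-fold lower signal. The other TLR3 probe fell by 1.23 (adjusted p = 0.0320), and the probes followed each other over the 21 arrays with a correlation of 0.988. Of the 9 genes 1 was called, against a background of 1.78% of all probes tested, or 0.944% called lower. TLR3 and TLR7 were the 2 genes whose groups lay apart, both lower, as did 16.7% of all probes, and the same 2 had an unadjusted p under 0.05, as had 20.2%. The test of equal means over the 7 groups also called TLR3 (adjusted p = 0.0176 by limma) and none of the other 8 genes, with 13.4% of all probes called. At inter-sites TLR3 was lower by 1.09 (SE 0.26) and did not pass the test (adjusted p = 0.0620 by limma). No TLR was called there, against a background of 0.452%. TLR3 was the 1 gene with an unadjusted p under 0.05 (17.6% of all probes) and the 1 whose groups lay apart, lower in pregnant sows (11.9% of all probes). The pair of comparisons shares the non-pregnant arrays.

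The TLR3 call at attachment sites depended on single arrays and on the processing. It was lost without non-pregnant replicate 1 (-1.25, adjusted p = 0.118 by limma) or 2 (-1.09, 0.129) and without attachment-site replicate 1, 2 or 3 (adjusted p = 0.0852, 0.107 and 0.0736), each of which leaves 2 arrays in a group. It was kept without non-pregnant replicate 3, at -1.43. Without both non-pregnant replicates that were high in smooth muscle markers, the difference was -0.91 (adjusted p = 0.271), with a single non-pregnant array assumed to vary like the other groups. Day 13 attachment-site replicate 2 and day 18 attachment-site replicate 2 were also high in these markers, with summed levels of 9.27 and 10.59, and had TLR3 at 0.13 and 0.41. Day 18 inter-site replicate 3 and day 24 inter-site replicate 2, at 9.21 and 9.31, had it at 0.36 and 0.12. The part of smooth muscle in the TLR3 difference was not tested. With slide as a block the difference was -1.27 (adjusted p = 0.110). Slides 1 and 3 held 1 array of each group, which differed by -1.59 and -0.85. A block of libraries that match at on-off probes, chosen after seeing the data, was run in 2 versions: the first kept the call (-1.13, adjusted p = 0.0323) and the second lost it (-1.0, adjusted p = 0.153). Neither version separates animals, since in each a set of 12 libraries spans 3 days. Both put non-pregnant replicate 3 in a set with inter-site day 24 replicate 3, and non-pregnant replicates 1 and 2 together in another. Both also put the attachment-site and inter-site replicate 3 of day 18 together, and those of day 13. They parted the attachment-site and inter-site replicate 1 of day 13 and replicate 3 of day 24. Whether libraries of a set share a source was not tested. The inter-site difference passed the threshold without inter-site replicate 1 (-1.28, adjusted p = 0.0311), non-pregnant replicate 3 (-1.26, adjusted p = 0.0468), day 18 attachment-site replicate 2 or day 24 inter-site replicate 3 (-1.09, adjusted p = 0.0445 and 0.0413). Single arrays on slides 3 and 6 differed by -0.99 and -0.71.

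**Figure D1:**
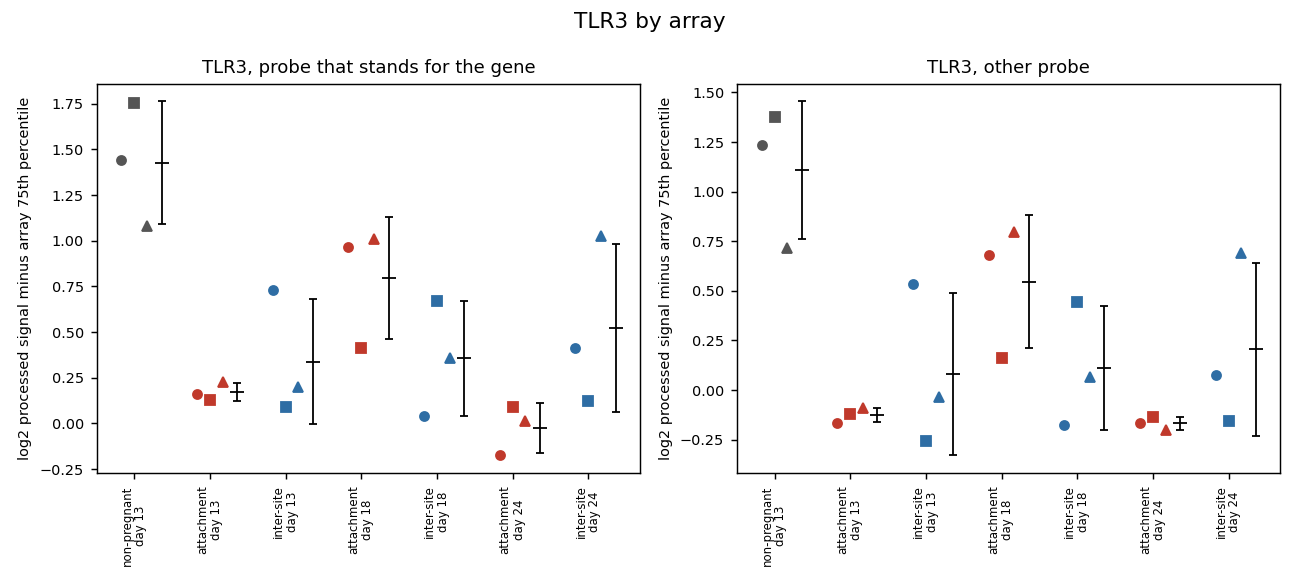
Level of the 2 TLR3 probes on each array, as log2 signal over the 75th percentile of its own array, by group; circles, squares and triangles are replicates 1, 2 and 3, and bars are the mean ± SD of 3 arrays. On the probe that stands for the gene, non-pregnant arrays lie between 1.08 and 1.75, above all arrays of pregnant sows.

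Over time at attachment sites, TLR3 was 0.63 higher on day 18 than on day 13 (SE 0.26, adjusted p = 0.182 by limma) and 0.82 lower on day 24 than on day 18 (SE 0.26, adjusted p = 0.0728 by limma). In both steps the 3 arrays of a day lay apart from the 3 of the other, yet neither passed the test. Without day 18 attachment-site replicate 2, the day 24 difference was -1.01 and past the threshold (adjusted p = 0.0483), and without inter-site day 13 replicate 1 and inter-site day 24 replicate 3 it was also past it (-0.82, adjusted p = 0.0391). Summed conceptus and trophoblast markers, 4 of 12 with a probe, ran from 2.55 to 5.60 at day 18 and from 6.45 to 8.28 at day 24 attachment sites. Their part in the TLR3 values was not tested. On day 24 TLR3 was 0.55 lower at attachment sites than at inter-sites (95% interval -1.10 to 0.01, adjusted p = 0.625 by limma). Without inter-site day 24 replicate 3, at 1.03 the highest of its group, this was -0.29, and on the other probe it was -0.37 with groups that overlapped. The change of this site difference from day 18 to 24 was -0.99 (unadjusted p = 0.0162, adjusted p = 0.99999 by limma), so it did not pass the test either.

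TLR7, a receptor for single-stranded RNA, had the next lowest p-values. Its levels were -3.33, -3.60 and -2.28 in non-pregnant sows and -4.49, -4.95 and -4.02 at day 13 attachment sites. They were -3.0, -3.79 and -2.68 on day 18 and -2.64, -2.45 and -3.64 on day 24 at these sites. Day 13 attachment sites thus lay below the other 3 groups with no overlap. The difference from non-pregnant sows was -1.42 (SE 0.60, adjusted p = 0.200 by limma), from day 13 to 18 it was 1.33 (adjusted p = 0.215) and from day 13 to 24 1.58 (adjusted p = 0.0857). None passed. Under normexp the first 2 were -0.70 and 0.38 and the last 0.99, and without non-pregnant replicates 1 and 2 the first was -2.21. The last became past the threshold without day 13 inter-site replicate 1 (adjusted p = 0.0467), which is in neither group but enters the estimate of the spread, and when only those groups were fitted (adjusted p = 0.0286). At inter-sites TLR7 ranged from -4.14 to -1.98 on day 13, from -4.96 to -3.12 on day 18 and from -4.19 to -2.61 on day 24, and these ranges overlapped.

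TLR8 lay close to background. It was well above it on all 3 day 18 attachment-site arrays, at -2.70, -4.33 and -4.78, and on 1 array each of the non-pregnant group (replicate 3, -4.72), the day 13 attachment sites (replicate 1, -2.41) and the day 18 inter-sites (replicate 2, -3.99). On the arrays of the day 13 inter-sites, day 24 attachment sites and day 24 inter-sites it never rose well above background, and its measured means there were -5.58, -6.41 and -6.28, against -3.94. As a description, dim arrays were set at the lowest signal of any probe called well above background, or at their own where higher. Day 18 attachment sites were then 2.76-fold, 2.37-fold and 3.56-fold above these 3 groups. These values are not lower bounds, since a probe can lie above that signal and still not be called well above background. The filter also fixes them in part. The fitted day 24 minus day 18 difference at attachment sites did not pass the test (adjusted p = 0.184 by limma) and turned to 0.22 under normexp background correction. TLR9, the receptor for CpG DNA, had group means between -4.09 and -3.52 and no comparison in which its groups lay apart. Its highest array was non-pregnant replicate 3, at -2.43, and its lowest was day 18 attachment-site replicate 2, at -4.99.

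Among the surface receptors of the lipoprotein group, TLR10, whose ligand is not settled, had the widest spread within groups (SD 0.93). Its levels were -4.56, -5.28 and -1.84 in non-pregnant sows, -3.85, -3.51 and -3.54 at day 13 attachment sites, -1.73, -2.46 and -2.66 on day 18 and -3.22, -3.07 and -2.61 on day 24. Day 18 attachment sites lay above those of day 13 with no overlap, by 1.35 (SE 0.70, 95% interval -0.14 to 2.84, adjusted p = 0.278 by limma). They also lay above day 18 inter-sites, which were at -3.97, -2.92 and -2.88, by 0.97 (adjusted p = 0.982), or by 0.40 with slide as a block and 0.61 without inter-site replicate 1, the lowest of them. Under normexp the difference between days 13 and 18 was 0.56. Day 24 attachment sites lay above those of day 13 too, by 0.67 (adjusted p = 0.572). None of these passed the test. Non-pregnant replicate 3 stood far above the other two of its group, which covered nearly the whole range of the gene.

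TLR1 was at 1.01, 0.76 and 0.25 at day 18 attachment sites and at 0.05, 0.17 and -0.02 on day 24, a difference of -0.60 without overlap (SE 0.32, adjusted p = 0.268 by limma). TLR2 was at -0.36, -0.61 and -0.60 at day 13 attachment sites and at -0.19, 0.01 and 0.60 on day 24, 0.66 higher without overlap (SE 0.38, adjusted p = 0.264 by limma), or 0.43 without day 24 replicate 3. TLR6, the other partner of TLR2, had group means from -4.04 to -3.64 and groups that overlapped in all comparisons. In non-pregnant sows replicate 3 was the highest of its group for TLR1 (0.93 against -0.19 and -0.25), TLR2 (0.21 against -0.67 and -1.02) and TLR6, as it was for TLR10. This was not particular to these genes. Replicate 3 was also the highest for TLR7, TLR8, TLR9 and, by little, TLR4 (-0.84 against -0.98 and -0.86), and the lowest for TLR3. The same library had the highest summed macrophage markers of its group, 5.90 against 3.95 and 3.78.

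**Figure D2:**
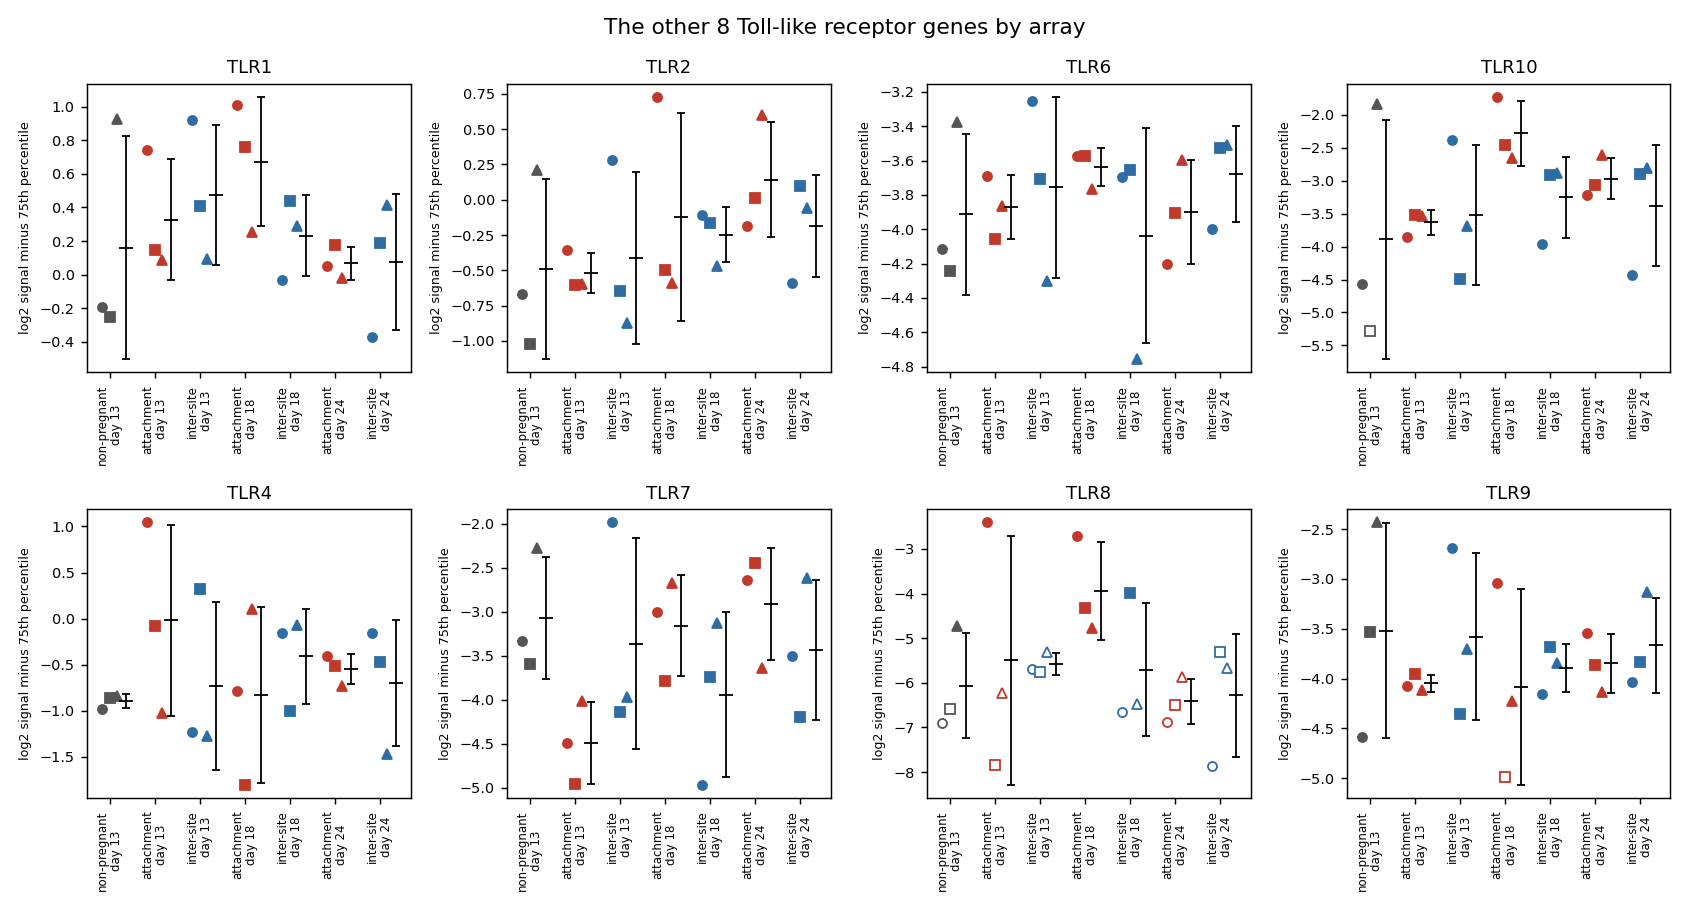
Level of the other 8 genes on each array by group, on the same log2 scale relative to the 75th percentile, with replicates 1, 2 and 3 as circles, squares and triangles and the mean ± SD of 3 arrays as bars. Open symbols were not well above background; TLR8 is open on 15 of 21 arrays, and groups overlap in most comparisons.

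TLR4, the lipopolysaccharide receptor, differed more between arrays of a group than between groups. It was at -0.98, -0.86 and -0.84 in non-pregnant sows, but at 1.04, -0.08 and -1.02 at day 13 attachment sites, at -1.23, 0.33 and -1.27 at day 13 inter-sites and at -0.79, -1.80 and 0.11 at day 18 attachment sites. Day 24 attachment sites lay closer together, at -0.40, -0.51 and -0.73. The pooled SD within groups was 0.79, 0.93 and 1.45 for TLR7, TLR10 and TLR8. For TLR4 it was 0.715, against a median of 0.42 over all probes tested. The 4 probes followed each other, with correlations between 0.766 and 0.929 over the 21 arrays. At day 13 attachment sites TLR4 was 0.88 above non-pregnant sows (95% interval -0.28 to 2.03, adjusted p = 0.383 by limma), and the test over 7 groups gave adjusted p-values of 0.504 to 0.875 for the 4 probes. The 3 neutrophil markers S100A8, S100A9 and S100A12 had summed levels of 5.30, 4.39 and 0.65 at day 13 attachment sites and of -1.57, 5.21 and -0.10 at inter-sites. On day 13 the array with the highest sum at each site was the one with the highest TLR4, but among day 18 attachment sites, with sums of -0.25, -1.10 and -1.51, it was not. Over the 21 arrays the mean of these markers correlated with TLR4 at 0.606. The mean of the 6 epithelial markers did so at 0.56. Its members ran from CLDN4 at 0.616 and EPCAM at 0.533 down to CDH1 at 0.386 and KRT8 at 0.093. The part of either cell type was not tested.

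**Figure D3:**
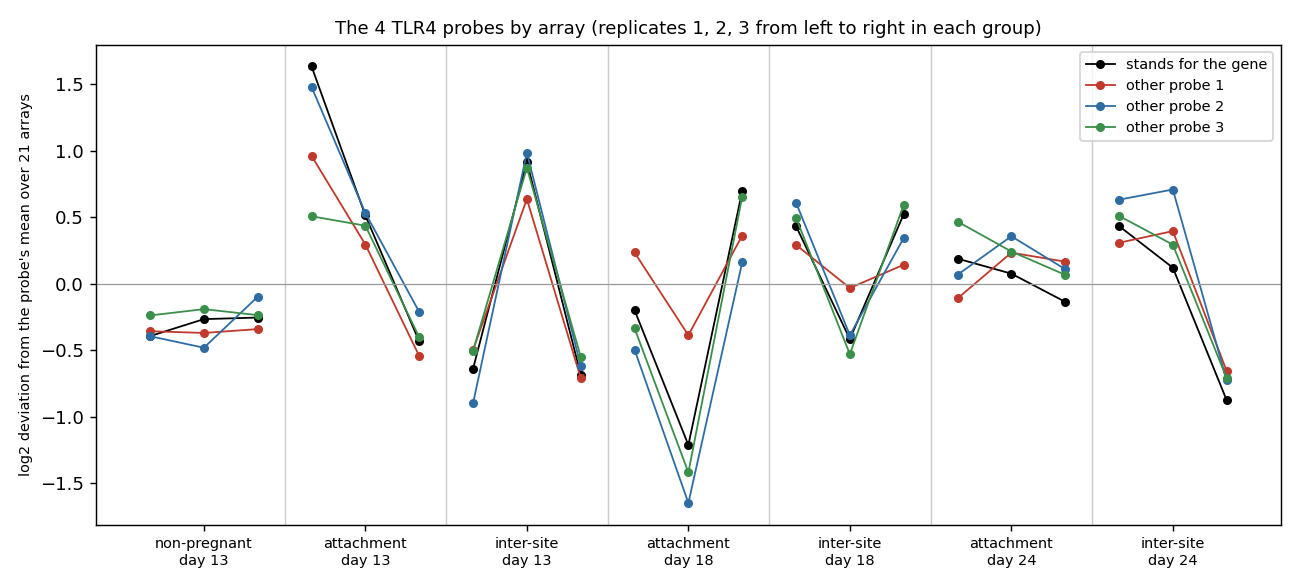
Deviation of each of the 4 TLR4 probes from its own mean over 21 arrays, in log2 units, with replicates 1, 2 and 3 from left to right in each group. The probes move together, and the levels at day 13 attachment sites ran from 1.04 to -1.02 on the probe that stands for the gene.

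Between attachment sites and inter-sites of the same day no TLR was called on day 13, 18 or 24, with 0%, 0% and 0.279% of all probes called. At an unadjusted p under 0.05, 0 of the 9 genes passed on any of these days by limma, against 8.11%, 4.69% and 8.05% of all probes. TLR10 was higher without overlap on day 18 (3.9% of all probes) and TLR3 lower on day 24 (7.5%), the latter on 1 of its 2 probes. Averaged over the 3 days no TLR was called either, with 0.00332% of all probes called. The site differences had 95% intervals of -0.30 to 0.49 for TLR1, -0.35 to 0.58 for TLR2 and -0.41 to 0.23 for TLR3. The intervals were -0.52 to 0.81 for TLR4 and -0.37 to 0.41 for TLR6. For TLR7, TLR8, TLR9 and TLR10 they were -0.67 to 0.80, -0.76 to 1.91, -0.91 to 0.35 and -0.44 to 1.28. On day 18, 7 of the 9 genes had a higher value in tissue from attachment sites, with a median difference of 0.44 against -0.0019 over all probes; TLR8, 1 of the 7, passed the filter through this group. The macrophage and T and NK lymphocyte markers had median differences of 1.22 and 0.76 in the same comparison, none of them called. At attachment sites no TLR was called from day 13 to 18, day 18 to 24 or day 13 to 24, with 1.8%, 5.62% and 15.7% of all probes called. At an unadjusted p under 0.05 they had 2, 2 and 1 TLR genes, against 21.3%, 23.3% and 30.5% of all probes. The second count holds TLR3 and TLR8, and TLR8 had entered the test through the group where it is high. Groups lay apart from day 13 to 18 for TLR3, TLR7 and TLR10, all higher (10.8% of all probes), and from day 18 to 24 for TLR1 and TLR3, both lower (13.2%), and for TLR8, for which the filter fixes this in part. From day 13 to 24 they lay apart for TLR2, TLR7 and TLR10, higher (22.1%), and for TLR3, lower (22.3%), on 1 of its 2 probes. At inter-sites none was called either, with 0.00665%, 0.143% and 0.246% called, and 0 of 9 genes had an unadjusted p under 0.05 by limma, against 5.48%, 14.1% and 13.9% of all probes. The change of the site difference was called for no TLR from day 13 to 18 (0% of all probes) or from day 18 to 24 (0.00997%). At an unadjusted p under 0.05 it had 1 TLR in each step, TLR7 (1.91, unadjusted p = 0.0388, adjusted p = 0.599 by limma) and TLR3, against 7.91% and 3.21% of all probes.

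**Figure D4:**
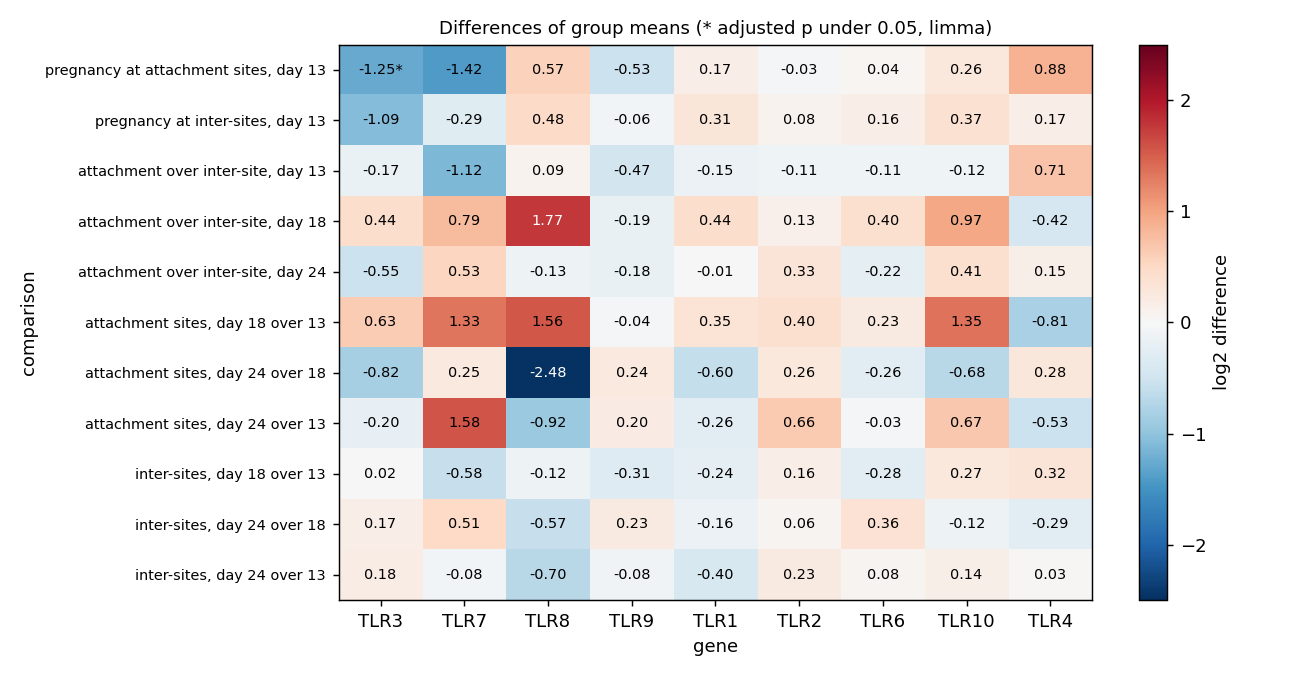
Difference of group means for each of the 9 genes (columns) in 11 comparisons (rows), in log2 units by colour and number; an asterisk marks an adjusted p under 0.05 by limma. Only TLR3 in pregnancy at attachment sites on day 13 (-1.25) carries one.

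Members of the family did not vary together as a whole. Over the 21 arrays, which share slides and possibly sows, TLR1 correlated with TLR10 at 0.717, and TLR2 with TLR10 at 0.743. TLR1 correlated with TLR8 at 0.753, but TLR8 was well above background on only 6 arrays and passed the filter through day 18 attachment sites. TLR3 and TLR4 stood apart from these genes, at 0.076 and -0.112 with TLR1. The 5 macrophage and monocyte markers with a probe, of 11 in the list, were taken as a mean. TLR7, TLR8, TLR6, TLR9 and TLR4 correlated with this mean at 0.546, 0.525, 0.511, 0.328 and -0.097. TLR10, TLR1 and TLR2 followed it most closely, with correlations of 0.846, 0.675 and 0.75. Of the 5, CD14 (0.177, -0.030 and 0.051) and CD163 (-0.145, 0.009 and 0.159) did not follow them. The same genes had correlations of 0.769, 0.475 and 0.740 with the mean of 2 dendritic cell markers. Of these, CCR7 (0.806, 0.482 and 0.756) followed them and CLEC4G (-0.034, 0.06 and 0.073) did not. CCR7 was well above background on 16 arrays. With the mean of 9 T and NK lymphocyte markers the correlations were 0.688, 0.623 and 0.455. Among the 9, CD247 (-0.462, -0.357 and -0.379) and GZMB (-0.228, 0.07 and -0.501) did not follow them. The macrophage list's summed level ran from 3.78 to 5.90 in non-pregnant sows, from 3.87 to 4.80, from 5.64 to 6.46 and from 5.30 to 5.42 at attachment sites of days 13, 18 and 24, and from 4.03 to 5.49, from 4.40 to 4.86 and from 3.73 to 5.30 at the inter-sites. All 5 markers were well above background on every array. In bulk tissue fewer cells of a type and less RNA per cell cannot be told apart, and the part of these cells in the TLR values was not tested. TLR3 had correlations of -0.162 with the macrophage list, -0.597 with the epithelial list and -0.606 with the blood and yolk sac list. The epithelial markers ran from CLDN3 at -0.722 to EPCAM at -0.065. Of the endometrial markers, PGR and ESR1 were at 0.781 and 0.762 with TLR3, and SPP1 and ACP5 at -0.177 and -0.321. The part of these markers' cells in the TLR3 values was not tested.

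**Figure D5:**
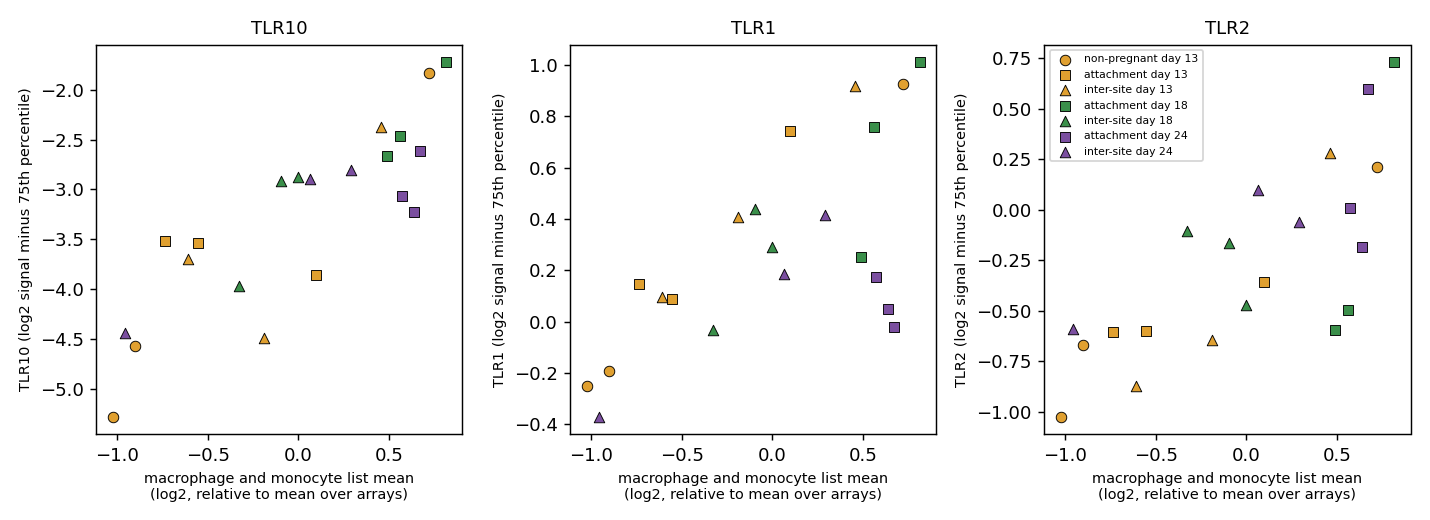
Level of TLR10, TLR1 and TLR2 on each of 21 arrays against the mean of 5 macrophage and monocyte markers, each taken relative to its own mean over arrays, both in log2 units; colours are days and shapes are sites. The points rise together, with correlations of 0.846, 0.675 and 0.75.

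Among 2008 other named genes, those whose levels over the 21 arrays were most like a member's by Pearson correlation were as follows. For TLR3 they were PHF6 (0.838), INPP4A (0.788) and DNPEP (0.786). For TLR10 they were the cytokine IL10 (0.896), TNFAIP8L2 (0.892) and the chemokine XCL1 (0.868), and IL10 also led for TLR1 (0.809), before CD1D and AMBN. For TLR2 they were RAP2B (0.885), TGFB1 (0.857) and the chemokine receptor CCR1 (0.820), and for TLR6 RAP2B (0.670), FLVCR1 and TLR2. TLR7 was most like RNASE6 (0.815), ADA2 and RAD54L, and TLR8 most like TLR1 (0.753) and CD180. As TLR8 was well above background on only 6 arrays, its likeness rests mostly on values near background. GNMT (0.819) and FGF9 were among those most like TLR4, and TLR9 was most like SLC7A7 (0.778), BMP7 and TNNI2. These correlations include the differences between groups. With each group's mean taken away, the genes most like TLR3 were TRIM21 (0.694), PSMB10 (0.667) and DNPEP (0.659), without PHF6 and INPP4A.

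Genes that serve or follow the receptors were counted from lists of co-receptors, adaptors, transcription factors, brakes, target cytokines, other sensors and alarmins, of which 70 genes were tested. At day 13 attachment sites 2 were called higher and 1 lower than in non-pregnant sows, with 1.78% of all probes called. The count of 3 went to 0 without non-pregnant replicate 1 or 2 or any 1 of the 3 attachment-site arrays, to 1 without day 24 attachment-site replicate 2, and to 5 and 6 without day 13 inter-site replicate 1 and day 24 inter-site replicate 3. CD14, the co-receptor of TLR4, was at -0.33, -0.30 and -0.19 in non-pregnant sows and between 1.41 and 2.26 at attachment sites, and rose from a mean of -0.28 to 1.72 (SE of the difference 0.45, adjusted p = 0.0365 by limma). The acute-phase protein SAA3 rose by 4.07 (adjusted p = 0.0397), and the neutrophil chemokine CXCL8 fell from a mean of -1.58 to -5.72 (adjusted p = 0.0281), with 2 of its 3 attachment-site arrays well above background. LY96 (-0.86, adjusted p = 0.230) and MYD88 (-0.49, adjusted p = 0.414) did not pass. At inter-sites 0 of the 70 were called by limma, with 0.452% of all probes called. There 10 of the 70 had an unadjusted p under 0.05, against 17.6% of all probes.

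From day 13 to 18 at attachment sites 6 of the 70 were called, all higher, with 1.8% of all probes called. The count was 0 without day 13 replicate 2 or day 18 replicate 1 of these sites, 1 to 3 without day 13 replicate 1 or 3, day 24 replicate 2 or 3 or non-pregnant replicate 2, and 10 to 13 without day 18 replicate 3, day 13 inter-site replicate 1 or non-pregnant replicate 3. Among them were CXCL10 (4.47), CCL2 (3.14), CASP1 (2.89), IRF1 (2.26) and CD180 (2.57), which is a TLR-like receptor of B cells and macrophages. From day 18 to 24, 7 were called higher and 5 lower, with 5.62% of all probes called. The count of 12 fell to 5 without day 18 replicate 1 and to 3 without day 18 replicate 3 or day 24 replicate 2 or 3. CXCL10 (-5.35), CD180 (-2.41), IRF1 (-2.35), IL15 (-1.43) and TICAM2 (-1.08), the bridging adaptor of TLR4, fell. IL6 (5.92), PGLYRP1 (4.40), S100A12 (3.52), SOCS3 (1.91), LGALS3 (1.83), PPARG (1.80) and CTSB (1.13) rose. Between day 13 and day 24, 11 were called higher and 2 lower, a share near the 15.7% of all probes called, and 3 to 8 were called without any 1 of the 6 arrays of these groups. Among the 13 were HSP90B1, a chaperone of TLRs (0.92, adjusted p = 0.0104 by limma), and TRAF6, a signalling ligase downstream of MYD88 (-0.85, adjusted p = 0.0493). On day 24 IL6 and PGLYRP1 rose by 4.81 and 5.96 from inter-sites to attachment sites, with 0.279% of all probes called, and this count of 2 was lower in 17 of 39 other settings. It was 1 without any 1 of attachment-site replicates 2 and 3 and inter-site replicates 1 and 3, and without 6 arrays of other groups: non-pregnant replicates 1 and 2, day 13 attachment-site replicates 2 and 3, and replicate 2 of the day 13 and day 18 inter-sites.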

How the data were processed

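The deposited values are spot intensity on a linear scale, read by the scanner software Feature Extraction (10.7.3.1 in the file headers, while the submitters' processing notes give 10.7); the software's background-subtracted processed signal was used, with its flags (other columns, per the file headers). Control and outlier-flagged spots were left out and spots of a probe averaged. A deposited table of log2 values (median 5.85 in each of 21 columns) served as an alternative; which centring the authors used is not known, and inter-site day 24 replicates 2 and 3 appear exchanged between it and the scanner files. Names came from RefSeq accessions: 5461 probes, 2389 genes. The group means were fitted over 30091 probes with limma 3.58.1 in R 4.3.3, with 14 contrasts and Benjamini-Hochberg adjustment within each, called at an adjusted p under 0.05. The method was tested on simulated data. Normexp (offset 50) used the median spot signal, since no mean signal was given. Where a gene had several probes, the brightest stood for it. List genes are named where called, or as co-receptor, chaperone or adaptor of a described member; some genes these rules name are not reported here. Members, lists and tests were chosen with earlier results of these data known. The number of arrays limits the precision, and where sows are shared p-values measure only the spread between arrays.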

Additional observations from a re-analysis of the deposited data

How the results depend on the processing

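The 15 TLR differences whose groups did not overlap were carried through 37 to 40 alternatives each, a choice made after the overlaps were seen. TLR8 from day 18 to 24 turned from -2.48 to 0.22 under normexp, and all the others kept their direction in every setting. At attachment sites on day 13 TLR3 lost its call under normexp (-1.05), without a filter on dim probes (-1.25), with slide as a fixed block (-1.27), with the second version of the on-off block (-1.0) and without non-pregnant replicates 1 and 2 (-0.91), and 0 TLR genes were then called against 1; leaving out single arrays gave -1.43 to -1.09 and 0 to 1 genes. Adjusted p ranged from 0.00469 to 0.271. The 2 versions of the on-off block, of 11 and 16 probes, and the setting without both non-pregnant replicates were chosen after seeing the data, the second version after the result of the first; no other was run. The test over 7 groups called 0 TLR genes under normexp, slide as a fixed block, the second on-off version and without both non-pregnant replicates, and 0 to 1 without single arrays. At inter-sites on day 13 TLR3 became called, 1 gene against 0, under array median scaling (-1.25), probes well above background on all arrays (-1.09), trend and robust variance (-1.09) and without inter-site day 13 replicate 1 and inter-site day 24 replicate 3 (-1.28); single arrays gave -1.28 to -0.92. One TLR was called against 0 from day 18 to 24 at attachment sites without the same 2 libraries, and from day 13 to 24 without them, with either on-off version and with only the groups compared; single arrays gave 0 to 1. For sites and for inter-sites over time it was 0 in all settings.

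Array median scaling called 628 probes at inter-sites on day 13, 74 higher, against 136 and 43, and normexp called 0; the median over probes moved by at most 0.30 (normexp). Pathway counts ranged from 0 to 7 for attachment sites on day 13 (3 in the report), 0 to 22 from day 13 to 18 (6), 3 to 17 from day 18 to 24 (12), 3 to 21 from day 13 to 24 (13) and 0 to 2 for sites on day 24 (2). Same-numbered attachment-site and inter-site arrays had deviations correlated between -0.11 and 0.49, not all over 0.1, so the numbers were not taken to pair them. The 0.49 was that of replicate 3 on day 18, while arrays of unlike number reached 0.44. A block on replicate number over all 7 groups joins arrays of different sows, so it does not adjust for the sow. With it the day 13 TLR3 difference of attachment sites from non-pregnant sows had an adjusted p of 0.0377 by limma. No count of TLR genes called changed with it.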
